A study of Homo sapiens with 14 samples.

Results

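The NF-kB subunits and their feedback genes are 9 genes chosen by name, out of 54628 gene symbols in the count files. The 5 subunits are RELA, RELB, REL, NFKB1 and NFKB2. The 4 feedback genes are NFKBIA, NFKBIZ, TNFAIP3 and BIRC3. They were chosen for their role in the pathway, by no threshold on a measured value but with earlier results of these data known. All 9 were listed in every library, and all 9 were among the 19126 genes that passed the filter on low counts. In GENCODE v29 (GRCh38) they lie at chr11:65653596-65663094 (RELA), chr19:45001430-45038198 (RELB), chr2:60881521-60931610 (REL), chr4:102501329-102617302 (NFKB1), chr10:102394110-102402529 (NFKB2), chr14:35401511-35404749 (NFKBIA), chr3:101827991-101861022 (NFKBIZ), chr6:137867188-137883312 (TNFAIP3) and chr11:102317450-102339403 (BIRC3).

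NF-kB proteins are dimeric transcription factors that wait in the cytoplasm bound to inhibitors of the IkB family. Cytokines, microbial products and DNA damage activate the IkB kinase complex (IKK), the inhibitor is degraded, and the dimer enters the nucleus and binds kappa-B sites near its targets. Several targets encode its own regulators, so the level of their transcripts is often read beside that of the subunits. In senescent fibroblasts the pathway is known for driving the secretion of inflammatory cytokines.

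RNA from IMR90 cells, which are human lung fibroblasts, was sequenced in 14 libraries. Untreated wild-type cells (WT) and untreated cells with HMGB2 knocked down (siHMGB2) had 2 libraries each. In the other 10 libraries, senescence had been induced with inflachromene (ICM) at 10 µM for up to 6 days. Of these, 4 carried no knockdown (ICM 1 to ICM 4), and 2 each were labelled siSRRM2, siBANF1 and siCTCF, for knockdown of those genes on top of ICM. The labels do not give the siRNA sequences, and WT and ICM carry no label for a control siRNA. The growth label names isolates I79 and I83 at passage 5, without saying which library came from which. ICM 3, ICM 4 and both siCTCF libraries are titled IMR90 but have cell line entries running from IMR91 to IMR94. Their titles have another form than the rest and the series' design text does not list siCTCF, so these 4 libraries are treated as a set of their own. The comparison of ICM 3 and 4 with WT therefore crosses 2 sets of libraries, and ICM and set cannot be told apart in it. Libraries are named below by their labels and replicate numbers. The labels do not say whether replicates came from separate cultures, so the p-values below measure only the spread between these libraries.

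Libraries held between 22336161 counts on genes (siCTCF 1) and 58257456 (siBANF1 2). Small RNA genes took 3.28% to 6.2% of the counts in ICM 1 and 2 and in the libraries labelled siSRRM2 and siBANF1, against 0.00702% to 0.0111% in the other 8. HMGB2 was at 3.18 and 3.52 CPM (counts per 1000000 counts on genes) in siHMGB2, against 27.7 and 28.01 in WT. CTCF was at 71.5 and 23.0 CPM in siCTCF 1 and 2, against 94.9 and 91.9 in ICM 3 and 4. BANF1 was not lower in the libraries labelled siBANF1 (17.0 and 36.7 CPM) than in ICM 1 and 2 (13.52 and 32.7). Nor was it lower in the libraries labelled siSRRM2 (34.2 and 33.3 CPM). SRRM2 was lowest of all 14 in those same libraries (59.0 and 17.0 CPM), below the libraries labelled siSRRM2 (76.05 and 76.4) and below ICM 1 and 2 (238 and 112). The names of the deposited files carry the other knockdown for these 4 libraries, so which of the 2 siRNAs each received is uncertain. All 10 fibroblast markers (COL1A1, COL1A2, COL3A1, PDGFRB, PDGFRA, THY1, VIM, DCN, LUM and S100A4) were above 1 CPM in every library. Of 10 immune markers, CD68 carried nearly all the counts, and CD3E, CD3D and MS4A1 were at 0 in all 14 libraries.

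The kappa-B consensus was searched, on both strands, in the 250 bases before each start site listed by RefSeq (GRCh38.p14), with overlapping matches merged. It was found for 7 of the 8 genes that have an entry there: REL, NFKB1, NFKB2 and all 4 feedback genes. RELA had no match in its 2 windows, and RELB has no entry. Over all promoters in that table, 6.28% of 27305 genes, and 5.21% of 35116 windows, held a match. Of the 20 target genes with an entry, out of a list of 24 used below, 9 held one. The sequences below cover the 4 feedback genes and 2 subunits, and are shown because these genes carry in their own promoters the sequence that NF-kB dimers bind. Capitals mark the match. For NFKBIA (chr14:35404750-35404999, minus strand), NFKBIZ (chr3:101827740-101827989, plus strand), BIRC3 (chr11:102317234-102317449, plus strand) and NFKB1 (chr4:102501109-102501328, plus strand) the stretch upstream of the annotated gene is given. For TNFAIP3 (chr6:137867188-137867217, plus strand) and REL (chr2:60881518-60881547, plus strand) the match lies inside the GENCODE v29 gene model, and 30 bases round it are given.
NFKBIA: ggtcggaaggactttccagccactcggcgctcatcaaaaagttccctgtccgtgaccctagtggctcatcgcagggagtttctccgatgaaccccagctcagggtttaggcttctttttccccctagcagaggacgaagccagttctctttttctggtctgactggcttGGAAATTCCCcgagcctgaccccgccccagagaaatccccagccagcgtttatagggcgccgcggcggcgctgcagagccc
NFKBIZ: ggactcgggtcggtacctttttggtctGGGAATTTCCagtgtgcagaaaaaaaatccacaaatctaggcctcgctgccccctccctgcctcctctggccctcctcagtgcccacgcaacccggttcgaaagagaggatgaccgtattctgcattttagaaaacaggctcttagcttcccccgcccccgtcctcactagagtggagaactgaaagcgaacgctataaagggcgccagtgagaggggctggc
BIRC3: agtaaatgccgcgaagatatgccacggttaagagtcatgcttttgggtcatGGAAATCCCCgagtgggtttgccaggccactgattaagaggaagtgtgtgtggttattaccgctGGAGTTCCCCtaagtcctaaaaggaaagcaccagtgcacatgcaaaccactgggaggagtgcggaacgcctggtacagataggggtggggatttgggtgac
NFKB1: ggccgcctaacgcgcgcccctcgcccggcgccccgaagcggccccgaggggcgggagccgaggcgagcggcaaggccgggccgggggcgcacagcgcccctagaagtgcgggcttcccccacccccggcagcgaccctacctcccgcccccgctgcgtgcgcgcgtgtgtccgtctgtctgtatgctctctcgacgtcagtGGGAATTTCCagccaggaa
TNFAIP3: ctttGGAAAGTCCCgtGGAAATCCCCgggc
REL: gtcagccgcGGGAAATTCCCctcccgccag
The match begins 81 bases before the start in NFKBIA, 223 in NFKBIZ, 49 in NFKB1 and 47 in REL. TNFAIP3 has 2 matches only 2 bases apart, beginning 67 and 55 bases before the start, and BIRC3 has 2, at 199 and 135. NFKBIZ and NFKB1 share the same 10-base match. A match is a description of the letters in the window, and no binding was measured here.

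Compared per kilobase of exon, so that long and short transcripts can be set side by side, the order of the 9 genes differed between the 2 sets of libraries. In WT, NFKBIA, which encodes the IkB-alpha inhibitor that holds dimers in the cytoplasm, was highest at 65.4 ± 8.98 CPM per kb (mean ± SD, n = 2). NFKBIZ, encoding a nuclear IkB protein that works with NF-kB at a subset of targets, followed at 47.2 ± 2.51 CPM per kb, and its range does not meet that of NFKBIA. TNFAIP3, encoding the ubiquitin-editing enzyme A20 that shuts off signalling upstream of IKK, came next at 40.9 ± 4.82 CPM per kb, with libraries just below those of NFKBIZ. NFKB2 (25.2 ± 3.98) and RELA (21.9 ± 0.277) differed by less than the SD of NFKB2, and RELB (14.98 ± 2.58) and NFKB1 (14.35 ± 0.428) by less than that of RELB. REL (1.24 ± 0.105) and BIRC3 (0.513 ± 0.0373) were far below the rest, and these 2 genes took the last 2 places in all 7 groups. NFKBIA and NFKBIZ were first and second in WT, siHMGB2, ICM 1 and 2 and the libraries labelled siSRRM2 and siBANF1. In ICM 3 and 4 and in siCTCF, RELA was first, at 65.8 ± 3.44 and 60.7 ± 4.51 CPM per kb, and NFKB2 second, at 23.9 ± 8.13 and 22.7 ± 7.38.

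**Figure D1:**
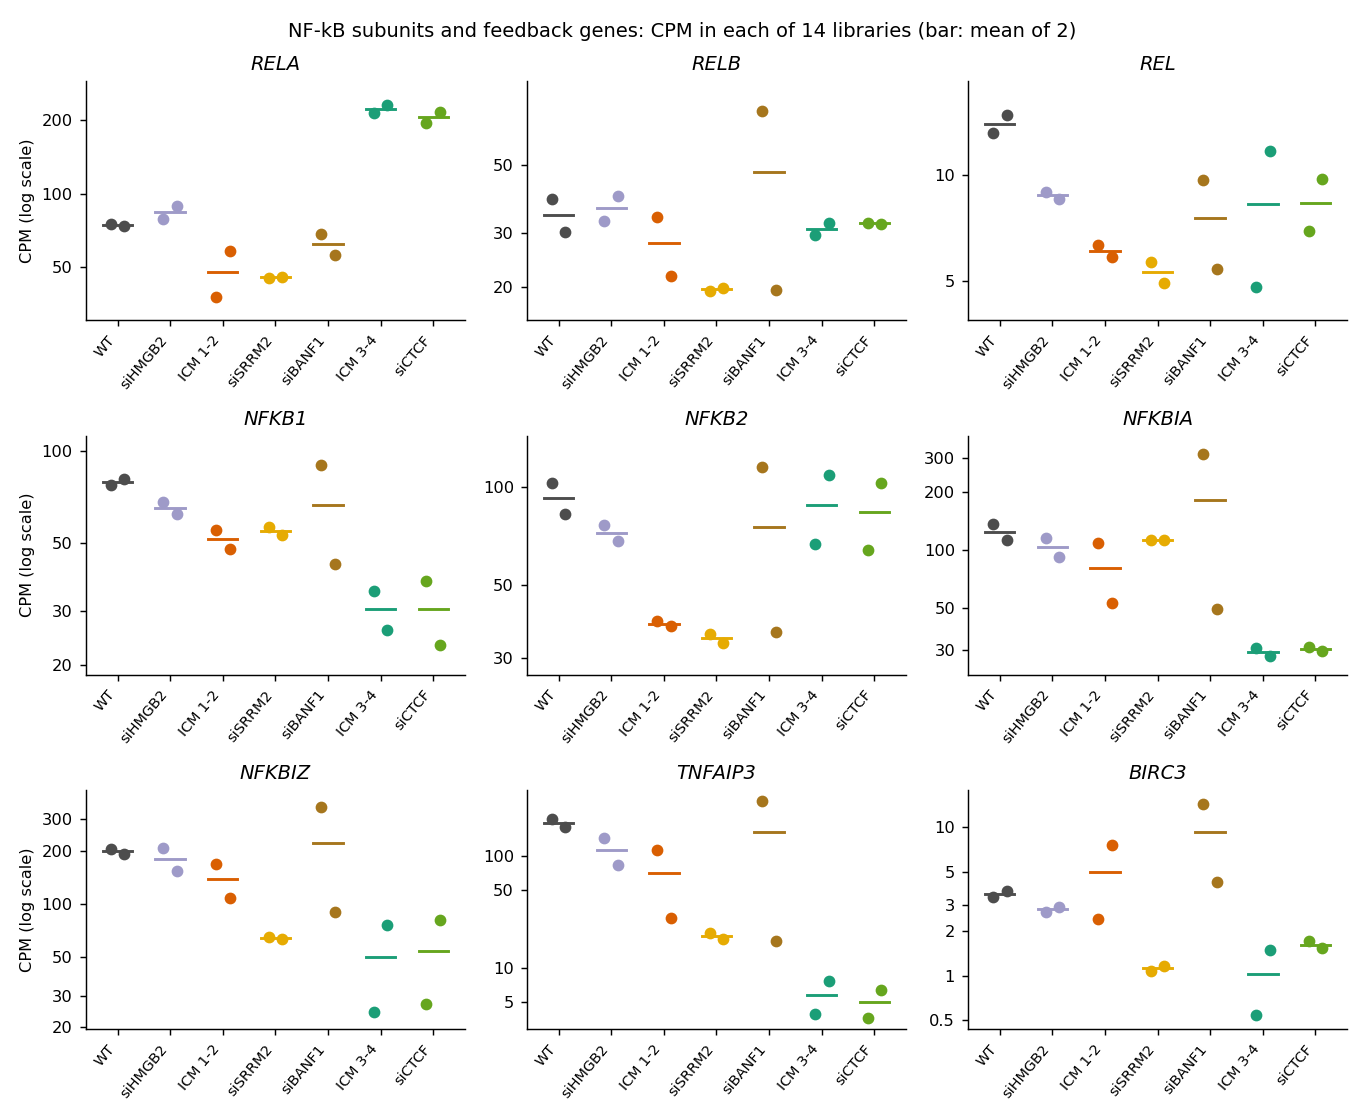
CPM of each of the 9 genes (y axis, log scale, a different range in each panel) in the 2 libraries (points) of each of the 7 groups, with their mean (bar). RELA is at 195 CPM or more only in ICM 3, ICM 4 and the siCTCF libraries, TNFAIP3 is lowest in the same 4 libraries, and siBANF1 1 is the highest library for 7 of the 9 genes.

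The spread across the 14 libraries differed between genes. The 5 subunits ranged over 3.09-fold (REL, lowest in ICM 3 at 4.81 CPM and highest in WT 2 at 14.8) to 6.11-fold (RELA, lowest in ICM 1 at 37.8 and highest in ICM 4 at 231). The 4 feedback genes ranged further. NFKBIA spanned 11.3-fold (27.9 to 315 CPM, median 100.2), NFKBIZ 14.6-fold (24.2 to 353, median 98.8), BIRC3 26.2-fold (0.544 to 14.25, median 2.54) and TNFAIP3 85.5-fold (3.58 to 306, median 24.3). For all 4 the highest library was siBANF1 1.

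The largest set of changes was between ICM 3 and 4 and WT, where 5 of the 9 genes fell and RELA rose. Since WT has no library in the set of ICM 3 and 4, ICM and set are confounded in these changes. RELA, which encodes p65, the subunit with the main transactivation domain of canonical NF-kB, reached 215 and 231 CPM in ICM 3 and 4, against 74.9 and 73.6 in WT. Both treated libraries were far above both untreated ones. The log2 fold change was 1.34 ± 0.23 (SE, n = 2 and 2), adjusted p = 0.00333 by edgeR's quasi-likelihood F-test. NFKB1, which encodes the p105 precursor of p50, the usual partner of p65, went the other way. It was at 34.8 and 25.9 CPM in ICM 3 and 4, against 77.6 and 80.9 in WT, without overlap, and fell by 1.62 ± 0.40 on the log2 scale (adjusted p = 0.014, edgeR). In bulk RNA, a smaller share of cells with a transcript and less of it per cell cannot be told apart, here and in all results below.

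The remaining 3 subunits did not pass the test in ICM 3 and 4 against WT. REL, which encodes c-Rel, had 4.81 and 11.7 CPM in ICM 3 and 4, against 13.2 and 14.8 in WT. Both treated libraries were lower, but they differed from each other by more than ICM 4 differed from WT 1 (log2 fold change -1.02 ± 0.42, adjusted p = 0.0837, edgeR). RELB, the partner of p52 in the non-canonical pathway, lay within the range of WT in ICM 4 (32.4 CPM) and just below it in ICM 3 (29.6, against 38.65 and 30.3), with a log2 fold change of -0.40 ± 0.51 (adjusted p = 0.575). NFKB2, which encodes the p100 precursor of p52, was at 66.8 CPM in ICM 3 and 109 in ICM 4, on either side of WT (103 and 82.4), with a log2 fold change of -0.33 ± 0.47 (adjusted p = 0.609).

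All 4 feedback genes fell in ICM 3 and 4 against WT. TNFAIP3 was at 3.89 and 7.65 CPM there, and at 210.1 and 178 in WT. It fell by 5.33 ± 1.19 on the log2 scale (SE, n = 2 and 2, adjusted p = 0.00948, edgeR), more than any of the other 8 genes. NFKBIA was at 30.9 and 27.9 CPM against 136 and 112, and fell by 2.32 ± 0.69 (adjusted p = 0.0293). NFKBIZ was at 24.2 and 75.3 CPM against 205 and 190.3, and fell by 2.26 ± 0.71 (adjusted p = 0.0356), although ICM 3 and ICM 4 differed from each other. BIRC3, which encodes the cIAP2 ubiquitin ligase that acts at TNF receptors, was at 0.544 and 1.498 CPM against 3.37 and 3.73, and fell by 2.05 ± 0.69 (adjusted p = 0.0441). In each of these 4 genes both treated libraries lay below both WT libraries. The share of all genes separated in this way was not counted for this comparison. This separation, like that of NFKB1, is therefore not a result about these genes.

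In all, 6 of the 9 genes were called, beside 30.3% of the 19126 genes tested. Of the 9, 5 were lower, beside 16% of all genes, and 1 was higher, beside 14.3%. The median log2 fold change of the 9 was -1.62, and that of all genes tested was -0.02. With WT 1, WT 2, ICM 3 or ICM 4 left out, the count of 6 fell to 2 each time. RELA stayed called as higher in all 4 of these fits (adjusted p 0.019 to 0.0381), TNFAIP3 as lower without WT 1 or WT 2 (0.0351 and 0.0363), NFKB1 as lower without ICM 3 (0.0424), and REL was called lower without ICM 4 (0.0408), while NFKBIA, NFKBIZ and BIRC3 were called in none. Under total-count scaling 4 of the 9 were called, 1 higher and 3 lower. NFKBIZ (adjusted p = 0.0507, edgeR) and BIRC3 (adjusted p = 0.0674) were not called there. Fibroblast markers moved with this comparison: their summed level was 2050 to 4230 CPM in ICM 3 and 4, against 19300 to 25900 in WT, and 7 of the 10 were called lower. Mitochondrial mRNAs moved with it too, with 0.241% and 0.252% of the counts on genes in ICM 3 and 4, against 3.54% and 3.11% in WT. The part of these differences in the changes of the 9 genes was not tested.

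**Figure D2:**
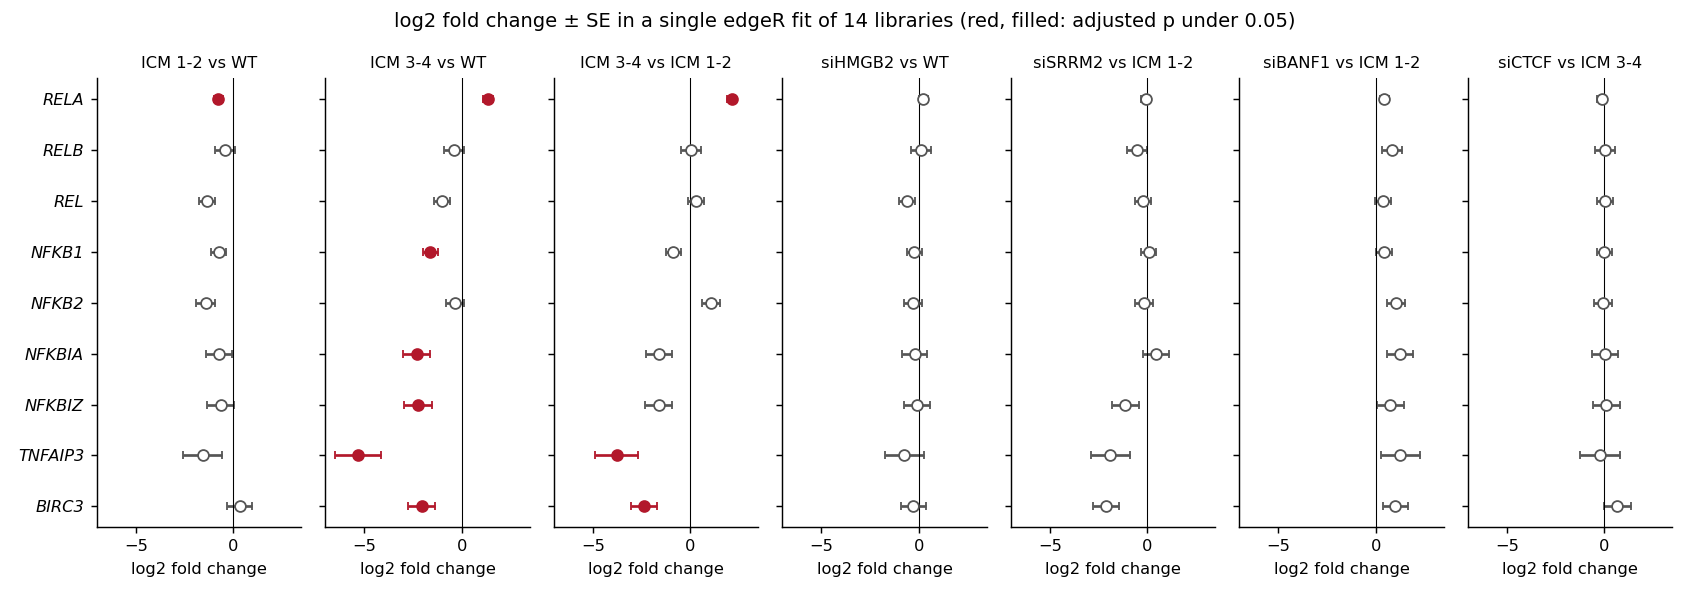
Log2 fold change (x axis) of each of the 9 genes in the 7 comparisons (panels), from a single edgeR fit of all 14 libraries, with bars of ± 1 SE. Filled red points have an adjusted p under 0.05: 6 in ICM 3 and 4 against WT, 3 in ICM 3 and 4 against ICM 1 and 2, 1 (RELA) in ICM 1 and 2 against WT, and 0 in the other 4 panels.

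In ICM 1 and 2 against WT, 8 of the 9 genes had values below 0, but RELA alone passed the test, and it was lower. RELA was at 37.8 and 58.02 CPM in ICM 1 and 2, both below WT (74.9 and 73.6), with a log2 fold change of -0.78 ± 0.23 (adjusted p = 0.0491, edgeR). That call did not hold when WT 1, WT 2 or ICM 1 was left out (adjusted p = 0.195, 0.176 and 0.123) or under 2 other scalings (0.0581 and 0.109). REL was at 6.33 and 5.84 CPM, well below 13.2 and 14.8 in WT, with a log2 fold change of -1.33 ± 0.42 (adjusted p = 0.0588). NFKB2 was at 38.8 and 37.6 CPM, below 103 and 82.4 in WT, with a log2 fold change of -1.41 ± 0.47 (adjusted p = 0.0719). For these 2 genes the ICM libraries lay close together and far from WT, and DESeq2 called both lower (adjusted p = 0.0267 for REL and 0.043 for NFKB2). NFKB1, at 55.1 and 48.0 CPM against 77.6 and 80.9, gave -0.75 ± 0.39 (adjusted p = 0.219).

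The count of 1 lower among 9 stands beside 6.87% of all genes called lower, and 13.5% called in either direction. The median of the 9 was -0.75, against 0.10 over all genes tested. For the feedback genes, ICM 1 and ICM 2 disagreed with each other. TNFAIP3 was at 112 CPM in ICM 1 and 27.9 in ICM 2, both below WT, giving -1.56 ± 1.00 (adjusted p = 0.317). With no filter on low counts TNFAIP3 was called lower (-1.575, adjusted p = 0.000332), as were REL and NFKB2, and RELA was not (0.156). These gained calls depend on the filter setting. Without it, the log2 fold change of TNFAIP3 in ICM 3 and 4 against WT went only from -5.33 to -5.35. Its adjusted p went from 0.00948 to 2.47e-33 (edgeR). In ICM 1 and 2, NFKBIA was at 109 and 52.8 CPM, giving -0.73 ± 0.66 (adjusted p = 0.482). NFKBIZ was at 167 and 108 CPM, giving -0.64 ± 0.68 (adjusted p = 0.551). BIRC3 was at 2.40 CPM in ICM 1, below WT, and 7.59 in ICM 2, above it, giving 0.32 ± 0.64 (adjusted p = 0.761). Other features of the libraries moved with this comparison too. Fibroblast markers summed to 4150 to 12700 CPM in ICM 1 and 2, against 19300 to 25900 in WT. Mitochondrial mRNAs took 0.454% and 0.0677% of the counts on genes, against 3.54% and 3.11%. Small RNA genes took 6.2% and 3.28%, against 0.0105% and 0.0111%. ICM and this difference between the libraries cannot be told apart in this comparison. The part of these differences in the changes of the 9 genes was not tested.

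The difference between the 2 ICM pairs was itself tested, and it is also the difference between their changes from WT, since both share the WT libraries. RELA was higher in ICM 3 and 4 than in ICM 1 and 2 by 2.12 ± 0.24 on the log2 scale (adjusted p = 0.000726, edgeR). TNFAIP3 fell by 3.77 ± 1.11 between ICM 1 and 2 and ICM 3 and 4 (adjusted p = 0.0371), and BIRC3 by 2.38 ± 0.69 (adjusted p = 0.0355). So 3 of the 9 were called, beside 19.5% of all genes. Of these, 1 was higher, beside 8.53%, and 2 were lower, beside 11%. TNFAIP3 lost its call without ICM 1 (-2.32, adjusted p = 0.211), ICM 3 or ICM 4, and BIRC3 without ICM 2 (-1.43, adjusted p = 0.138), ICM 3 or ICM 4. A fit restricted to these 4 libraries called none of the 3, RELA having an adjusted p of 0.0646. NFKB2 (1.08 ± 0.47) had a positive value, and NFKB1 (-0.87 ± 0.39), NFKBIA (-1.59 ± 0.67) and NFKBIZ (-1.62 ± 0.70) negative ones, none past the threshold (adjusted p 0.118 to 0.136). RELB, at 0.03 ± 0.51, and REL, at 0.31 ± 0.41, were closer to 0. No WT library belongs to the set of ICM 3 and 4, so in their comparison with WT the effects of ICM and of set cannot be told apart. Between the ICM pairs, set and any change in handling cannot be told apart either.

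A ratio of 2 genes within 1 library does not depend on how libraries are scaled. Per exon length, NFKBIA was at 3.24 and 2.72 times RELA in WT, and at 0.257 and 0.215 times RELA in ICM 3 and 4. NFKBIZ was at 2.21 and 2.09 times RELA in WT, and at 0.091 and 0.263 in ICM 3 and 4. TNFAIP3 was at 2.00 and 1.73 times RELA in WT, and at 0.013 and 0.0237 in ICM 3 and 4. So these 3 feedback transcripts outnumbered RELA in both WT libraries and were below it in ICM 3, ICM 4 and both siCTCF libraries. NFKB1 moved in the same direction: it was at 0.635 and 0.675 times RELA in WT, and at 0.0995 and 0.0687 in ICM 3 and 4. A ratio shows that the 2 genes changed unequally, not that RELA was steady.

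ICM 1 and ICM 2 fell on either side of WT in these ratios. NFKBIA was at 5.12 times RELA in ICM 1 and 1.62 in ICM 2, and TNFAIP3 at 2.11 and 0.343. The libraries labelled siBANF1 split in the same direction by number, with NFKBIA at 8.18 times RELA in siBANF1 1 and 1.57 in siBANF1 2, and TNFAIP3 at 3.19 and 0.222. The libraries labelled siSRRM2 had NFKBIA at 4.40 and 4.41 times RELA and TNFAIP3 at 0.327 and 0.287, so NFKBIA was further above RELA than in WT and TNFAIP3 was below RELA.

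**Figure D3:**
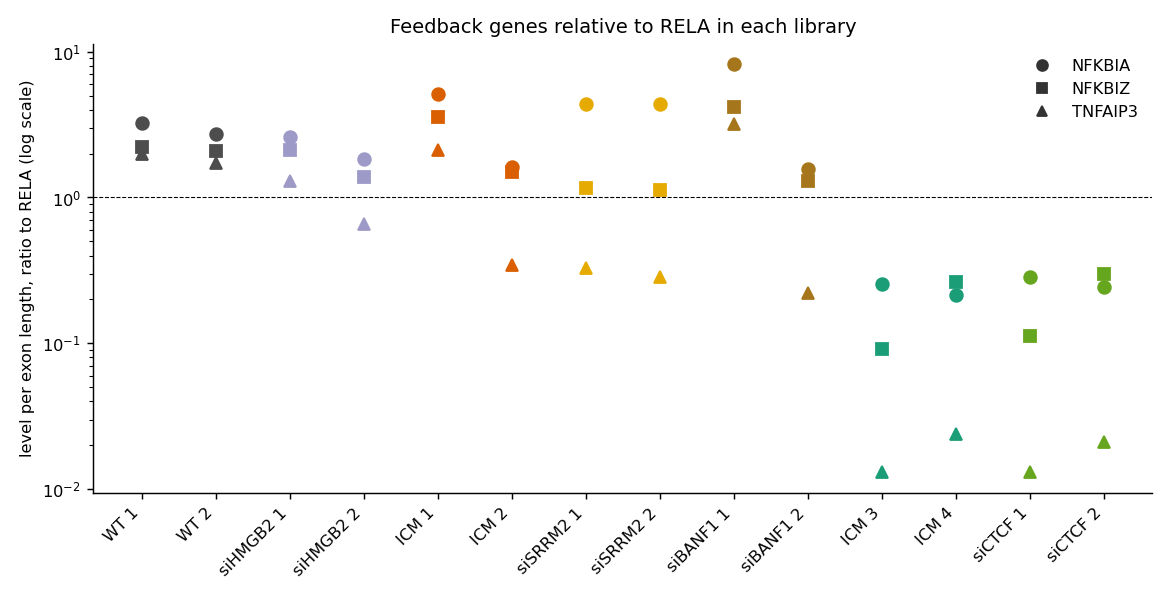
Level per exon length of NFKBIA (circles), NFKBIZ (squares) and TNFAIP3 (triangles) divided by that of RELA (y axis, log scale) in each of the 14 libraries (x axis), with a dashed line at 1. All 3 are above the line in both WT libraries, ICM 1 and siBANF1 1, and all 3 are below it in ICM 3, ICM 4, siCTCF 1 and siCTCF 2.

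Knockdown of HMGB2 in untreated cells gave no call among the 9 genes in the fit of all 14 libraries, where 0 of 19126 genes (0%) were called by edgeR, 908 had an unadjusted p under 0.05, and DESeq2 called 73. The knockdown target HMGB2, at 3.18 and 3.52 CPM against 27.7 and 28.01 in WT, was thus not called by edgeR either. The lack of a call in this fit therefore does not show a lack of change. TNFAIP3 was at 143 and 81.7 CPM in siHMGB2, both below WT (210.1 and 178), with a log2 fold change of -0.74 ± 0.99 (adjusted p = 1). REL was at 8.97 and 8.55 CPM, both below WT (13.2 and 14.8), with a log2 fold change of -0.62 ± 0.41 (adjusted p = 1). In a fit restricted to the 4 libraries of this comparison, the spread was much smaller, and these 2 genes were called lower: REL at -0.62 ± 0.18 (adjusted p = 0.0141) and TNFAIP3 at -0.73 ± 0.16 (adjusted p = 0.00106). In that fit 901 of 19126 genes (4.71%) were called lower and 1154 higher. RELA, at 79.0 and 88.9 CPM, was slightly above WT (0.23 ± 0.23), and the other 6 genes lay between -0.31 and 0.13 on the log2 scale, none called in either fit.

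In the libraries labelled siSRRM2, the 9 genes agreed closely between replicates, and 3 of the 4 feedback genes lay below ICM 1 and 2. Against ICM 1 and 2, 0 of the 9 genes were called by edgeR, beside 34 of 19126 genes (0.178%) called and 2168 with an unadjusted p under 0.05. BIRC3 was at 1.08 and 1.17 CPM, below 2.40 and 7.59 in ICM 1 and 2, with a log2 fold change of -2.12 ± 0.67 (unadjusted p = 0.00932, adjusted p = 0.26, edgeR). DESeq2, which called 727 genes, called it lower (adjusted p = 0.0359), the only one of the 9 that it called. TNFAIP3 was at 20.7 and 18.2 CPM against 112 and 27.9 (-1.89 ± 1.02, adjusted p = 0.517), and NFKBIZ at 64.9 and 63.1 against 167 and 108 (-1.13 ± 0.69, adjusted p = 0.57). NFKBIA, at 112 and 113 CPM, was above both ICM libraries (0.44 ± 0.66, adjusted p = 0.845). In all, 6 of the 9 genes (RELB, REL, NFKB2, NFKBIZ, TNFAIP3 and BIRC3) had both libraries below both ICM libraries, beside 21% of all genes. For TNFAIP3, ICM 2 lay near these libraries and ICM 1 far above them.

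In the libraries labelled siBANF1, all 9 genes had values above 0 against ICM 1 and 2, beside 53% of all genes, and none was called. By edgeR 0 of 19126 genes (0%) passed, 591 had an unadjusted p under 0.05, and DESeq2 called 17. The values ran from 0.36 ± 0.41 (REL) to 1.27 ± 1.00 (TNFAIP3), with a median of 0.83 against 0.03 over all genes. NFKB2, at 115 and 35.9 CPM, had the lowest unadjusted p (0.0469, log2 fold change 1.05 ± 0.47). The sign rests on siBANF1 1: without it, 8 of the 9 turned negative, from -0.14 (NFKB2) to -2.09 (TNFAIP3), and only RELA stayed above 0.

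The 2 libraries labelled siBANF1 differed more from each other in these genes than any other pair of replicates, with a median difference of 1.74 on the log2 scale against 0.09 to 0.71 in the other 6 groups. TNFAIP3 was at 306 CPM in siBANF1 1 and 17.5 in siBANF1 2. NFKBIA was at 315 and 49.3, and NFKBIZ at 353 and 89.5. All 9 genes were lower in siBANF1 2, 7 of them at least 2-fold, beside 46.2% of all genes at least 2-fold apart in that pair. ICM 1 and ICM 2 were at least 2-fold apart in 3 genes (NFKBIA, TNFAIP3 and BIRC3), beside 44.8% of all genes. ICM 3 and ICM 4 were also at least 2-fold apart in 3 (REL, NFKBIZ and BIRC3), beside 22.4%. The siCTCF libraries were so in 1 (NFKBIZ), beside 21% of all genes. None of the 9 differed 2-fold between the 2 libraries of WT, of siHMGB2 or of siSRRM2, beside 15%, 16.5% and 9.55% of all genes. Mitochondrial mRNAs took 0.754% of the counts on genes in siBANF1 1 and 0.0685% in siBANF1 2, and 0.454% in ICM 1 and 0.0677% in ICM 2, and the part of this in the split of the 9 genes was not tested.

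Set against the ICM library of the same number, the libraries labelled siBANF1 gave opposite pictures. All 9 genes were higher in siBANF1 1 than in ICM 1, beside 49% of all genes. Of the 9, 6 were at least 2-fold higher, beside 20.4% of all genes at least 2-fold apart. BIRC3 had the largest log2 ratio, 2.57 (14.25 CPM against 2.40), followed by NFKB2 at 1.57 (115 against 38.8) and NFKBIA at 1.53 (315 against 109). All 9 were lower in siBANF1 2 than in ICM 2, beside 50.8% of all genes. None was lower by 2-fold, beside 8.71% of all genes at least 2-fold apart. The log2 ratios ran from -0.05 (RELA) to -0.83 (BIRC3). These are single libraries, so the ratios have no replicate check.

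**Figure D4:**
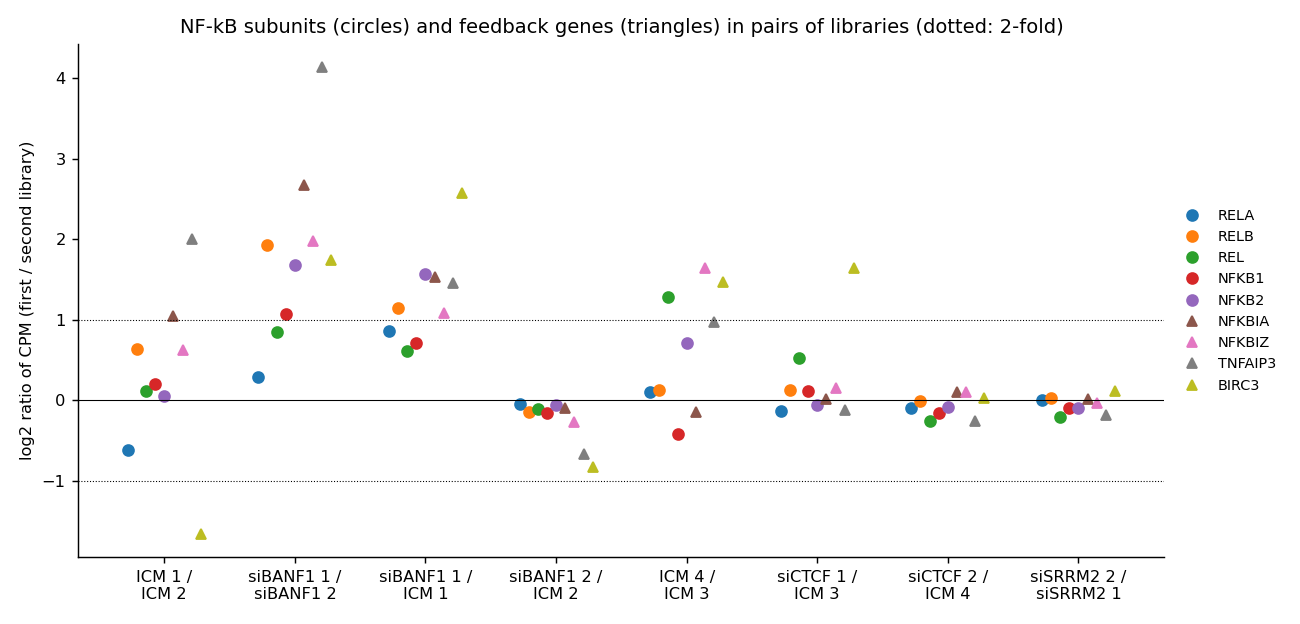
Log2 ratio of CPM (y axis) of the 9 genes (colours; circles are subunits, triangles feedback genes) in 8 pairs of libraries (x axis, named as first over second), with dotted lines at 2-fold. In siBANF1 1 over ICM 1 all 9 points are above 0 and in siBANF1 2 over ICM 2 all 9 are below it, while siSRRM2 2 over siSRRM2 1 keeps them within 0.21 of 0.

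Over all 9 genes, the nearest library to ICM 2 was siBANF1 2, with a root mean square difference of 0.343 in log2(CPM + 1). ICM 3 lay nearest to siCTCF 1 (0.322) and ICM 4 to siCTCF 2 (0.137), closer than ICM 3 and ICM 4 were to each other. The libraries labelled siSRRM2 lay nearest to each other (0.097), and so did WT 1 and WT 2 (0.214). ICM 1 lay nearest to siHMGB2 1 (0.531), and siBANF1 1 to WT 1 (0.865), so for these 2 ICM-treated libraries the nearest of all was an untreated one. ICM 1 and ICM 2 were 0.937 apart and the libraries labelled siBANF1 2.047 apart, and each of these 4 libraries lay nearer to some untreated library than to its own replicate (ICM 2 at 0.859 and siBANF1 2 at 1.004 from siHMGB2 2).

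In the siCTCF libraries none of the 9 genes passed the test. CTCF itself was at 71.5 CPM in siCTCF 1 and 23.0 in siCTCF 2, against 94.9 and 91.9 in ICM 3 and 4. The knockdown was thus much weaker in siCTCF 1. By edgeR 0 of 19126 genes (0%) were called against ICM 3 and 4, 125 had an unadjusted p under 0.05, and DESeq2 called 0. CTCF itself was thus not called, so the lack of a call here does not show a lack of change. The log2 fold changes ran from -0.21 ± 1.02 (TNFAIP3) to 0.68 ± 0.68 (BIRC3), with a median of 0.03 against -0.01 over all genes. RELA was at 195 and 216 CPM in siCTCF, against 215 and 231. NFKBIA was at 31.25 and 29.8 CPM, against 30.9 and 27.9, and TNFAIP3 at 3.58 and 6.39, against 3.89 and 7.65. The groups overlapped in all of these. BIRC3 had both siCTCF libraries (1.70 and 1.53 CPM) above ICM 3 and 4 (0.544 and 1.498), by little in the case of ICM 4. For TNFAIP3 an SE of 1.02 leaves a 2-fold change in either direction undetectable in the fit of all 14 libraries. With the compared libraries only, its log2 fold change was -0.20 ± 0.44 and it was not called either.

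Beyond the 9 genes, 67 other genes of the pathway were followed in lists by role, of which 63 passed the filter; NFKBIB, RNF31, TLR4 and TNF did not. In ICM 3 and 4 against WT, 24 of the 63 were called lower and 10 higher, beside 16% and 14.3% of all genes. Target genes were the list with the most calls: 17 of 23 fell, 0 rose, and the median log2 fold change was -4.41, against -0.02 over all genes. CXCL1, a chemokine that draws neutrophils, averaged 0.0800 CPM in ICM 3 and 4 and 218 in WT, a fall by 11.58 ± 1.98 on the log2 scale (adjusted p = 0.00307, edgeR). CCL20, another chemokine, and BCL2A1, a survival factor, had 0 counts in ICM 3 and 4, so they were at least 202-fold and 201-fold lower than in WT (taking 3 counts over the group as the floor). The list was chosen for being known targets, and what drives each of them in these cells was not tested.

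The layers above the subunits did not move as a block in ICM 3 and 4. Of 8 receptors tested, 3 rose and 3 fell. TNFRSF12A, the receptor for TWEAK, rose by 2.64 ± 0.46 on the log2 scale (953 against 130.1 CPM on average, adjusted p = 0.00321, edgeR), and TNFRSF1A (0.81 ± 0.27) and LTBR (0.80 ± 0.21) rose less. TNFRSF1B fell by 4.76 ± 1.28, IL1R1, the signalling receptor for IL-1, fell by 4.47 ± 1.22 (35.2 against 666 CPM), and IL1RAP, its co-receptor, fell by 1.53 ± 0.33. Of 13 kinases, MAP3K14 (NIK, the kinase of the non-canonical pathway) rose by 2.84 ± 0.43, IRAK1 by 1.604 ± 0.25 and TAB1 by 0.77 ± 0.25. IKBKE fell by 3.02 ± 0.78, IKBKB, the catalytic subunit IKK-beta, fell by 2.19 ± 0.55, and MAP3K7 fell by 0.72 ± 0.19. Of 16 adaptors and ubiquitin enzymes, TRAF6 (0.95), OTULIN (0.91) and SHARPIN (0.74) rose and TRAF5 fell by 2.79, and the median was 0.05. NFKBIE, encoding IkB-epsilon, rose by 1.66 ± 0.33 (48.6 and 57.2 CPM against 16.5 and 11.8), while NFKBIA fell.

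**Figure D5:**
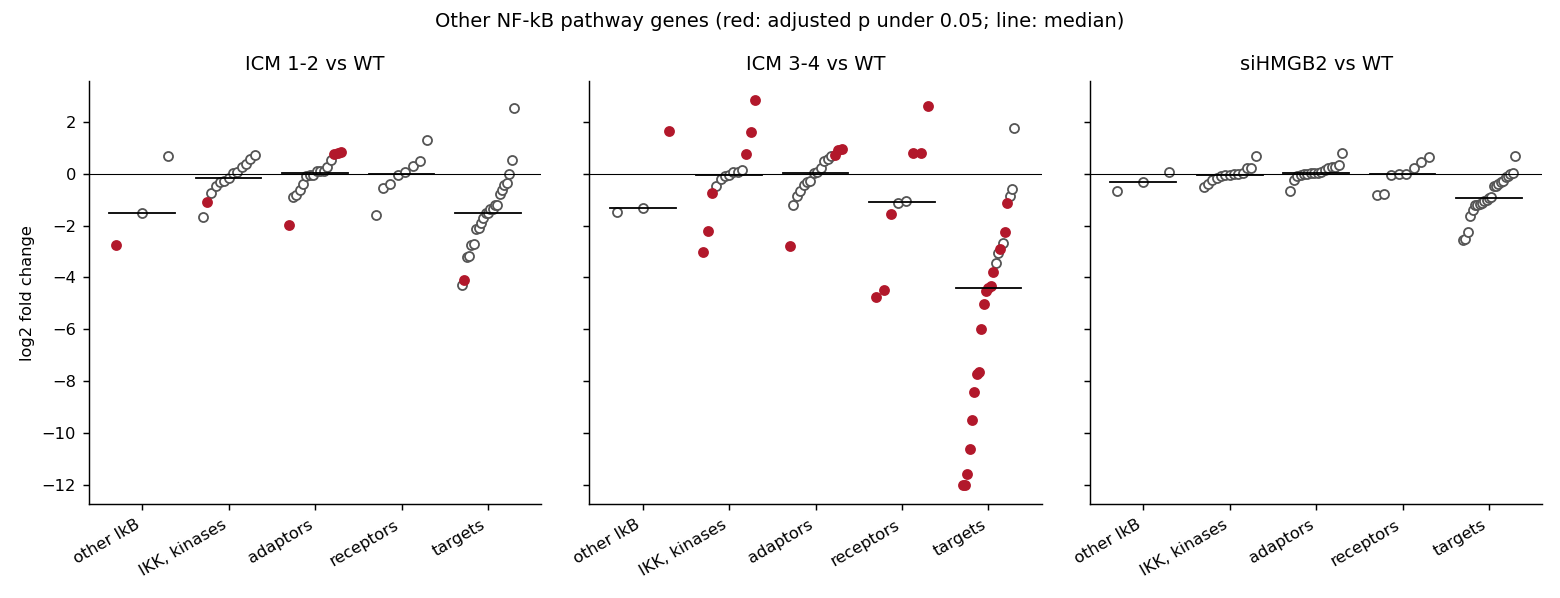
Log2 fold change (y axis) of each tested pathway gene outside the 9, by list (x axis), in 3 comparisons with WT (panels), with the median of each list as a line and calls at an adjusted p under 0.05 in red. In ICM 3 and 4 the targets have a median of -4.41 with 17 of 23 called lower, while the adaptors have a median of 0.05; in siHMGB2 none is called.

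In ICM 1 and 2 against WT, 7 of the 63 genes were called, 4 lower and 3 higher, beside 6.87% lower and 6.63% higher over all genes. With the 4 compared libraries only, 0 of the 63 were called, beside 0.0889% of all genes lower and 0.0837% higher, and 17 of the 63 had an unadjusted p under 0.05 in the fit of all 14 libraries. In that fit, BCL3, a nuclear IkB protein that binds p50 and p52 dimers, was at 9.98 and 3.74 CPM against 43.3 and 41.8 in WT, and fell by 2.73 ± 0.66 (adjusted p = 0.0236, edgeR). MYD88, the adaptor of IL-1 and Toll-like receptors, was at 13.85 and 20.9 CPM against 61.65 and 62.8, and fell by 1.99 ± 0.26. IKBKG, the regulatory subunit NEMO of IKK, fell by 1.07 ± 0.19, and BCL2A1 fell by 4.12 ± 1.17. TRAF6 (0.86 ± 0.24), ITCH (0.82 ± 0.19) and OTULIN (0.75 ± 0.18) rose. Of the 23 targets, BCL2A1 was the only one called, although 20 had values below 0 and their median was -1.505. MYD88 also differed between the ICM pairs, higher in ICM 3 and 4 (83.8 and 71.9 CPM) by 2.08 ± 0.26 on the log2 scale (adjusted p = 0.0013), the opposite of the target genes, of which 10 of 23 were called lower and 1 higher in that comparison, beside 11% and 8.53% of all genes. With only the compared libraries, 6 of the 23 were called lower and 0 higher, beside 0.753% and 0.497%.

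With siHMGB2 none of the 63 was called in the fit of all libraries. With the 4 compared libraries only, 18 were called lower and 2 higher, beside 901 (4.71%) lower and 1154 higher of the 19126 genes tested. Of the 18, 14 were target genes. PTGS2, the inducible cyclooxygenase, averaged 135 CPM in siHMGB2 against 800.0 in WT, CCL20 2.06 against 12.4, and BCL2A1 2.55 against 12.5. No pathway gene was called in the libraries labelled siSRRM2 or siBANF1 or in siCTCF. In the libraries labelled siBANF1, 20 of the 23 targets had values above 0, beside 53% of all genes, with a median of 1.80 and none called. As with the 9 genes, the libraries differed. In siBANF1 1, 20 of the 23 were higher than in ICM 1, beside 49% of all genes. In siBANF1 2, 9 were higher and 14 lower than in ICM 2, beside 48.2% and 50.8% of all genes.

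For each of the 9 genes, the 3 genes whose pattern over the 14 libraries was most like it were found among the 9202 genes averaging 10 CPM or more, by the root mean square difference of centred log2(CPM + 1). TNFAIP3 lay nearest to C3 (0.485), COL7A1 (0.523) and CSGALNACT1 (0.62), against an SD of 2.04 for TNFAIP3 itself. C3 is also in the list of targets. RELA lay nearest to SPATA2 (0.173), PAK4 (0.175) and SF3A1 (0.183). For NFKBIA the 3 were MAML2 (0.34), NFIL3 (0.351) and DPP4 (0.354), for NFKBIZ HSD11B1 (0.448), PRKD3 (0.452) and ABCG1 (0.485), and for BIRC3 ATP13A3 (0.423), ZNF587B (0.469) and ZBTB10 (0.48). For NFKB1 they were TRIM65, ADGRA3 and CUL7 (0.192 to 0.195), for NFKB2 CCDC136, KCTD13 and CRAMP1 (0.235 to 0.263), for RELB TSC2, TRIM56 and LIMK1 (0.168 to 0.187), and for REL TRIM44, ZNF664 and SDCBP (0.216 to 0.225). By title the 14 libraries fall into 2 sets that differ in depth, and the share of small RNA genes divides them along other lines. These distances therefore describe the libraries and are given with no test.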

How the data were processed

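Total RNA of 14 IMR90 libraries was sequenced from both ends. The authors deposited whole-number counts per gene symbol for each library, with 5 lines for reads given to no gene, which held 12.8% to 41.8% of the counts in a library and were dropped before library sizes were computed. The submitters' processing notes name STAR 2.7.3a, HTSeq 0.12.4, DESeq2 1.36.0 and hg38. The annotation release and the strand setting are not given in the sources used here, so reads of overlapping genes on opposite strands cannot be told apart.

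From the deposited counts, edgeR 4.0.16 (R 4.3.3, limma 3.58.1) was used to fit 1 quasi-likelihood model with a mean for each of 7 groups (TMM scaling, filterByExpr, 19126 genes, 7 residual degrees of freedom). P-values were adjusted by Benjamini-Hochberg over all genes tested and called under 0.05. CPM use gene totals without TMM factors, and exon lengths come from GENCODE v29. Depth ran from 22336161 to 58257456 gene counts. The script was tested on simulated data. Likeness between genes used a pseudocount of 1.

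All 9 genes are named in every comparison. Of each pathway list, the text names up to 3 called genes with the largest change in each direction. The 9 genes, the pathway lists and the marker lists (fibroblast, immune, endothelial, epithelial) were chosen with earlier results of these data known. Endothelial markers summed to 0.0788 to 9.88 CPM over the 14 libraries, epithelial markers to 9.43 to 21.7 and immune markers to 40.2 to 105.

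Alternatives were relative log expression and total-count scaling, no filter, DESeq2 1.42.0, fits of the compared libraries only, a replicate block, all 4 ICM libraries as 1 group, and leaving out each library. A fit without ICM 1, ICM 2 and the libraries labelled siBANF1 was added after seeing the data. Replicate numbers do not mark a shared animal, culture or day in the labels.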

Additional observations from a re-analysis of the deposited data

Results flagged for a closer look

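The change of 3 genes with ICM differed between the 2 pairs of ICM libraries, in the edgeR test of that difference with all 14 libraries. With only the compared libraries, none of the 3 was called. RELA was lower than WT in ICM 1 and 2 (-0.78) and higher in ICM 3 and 4 (1.34), a difference of 2.12 on the log2 scale. The call of RELA as lower in ICM 1 and 2 was lost under 2 other scalings. TNFAIP3 changed by -1.56 in ICM 1 and 2 and by -5.33 in ICM 3 and 4, a difference of -3.77. BIRC3 was at 0.32 in ICM 1 and 2 and at -2.05 in ICM 3 and 4, a difference of -2.38. The 2 changes share their WT libraries, and the set and its handling cannot be told apart. No WT library belongs to the set of ICM 3 and 4, so for that pair ICM and set cannot be told apart. ICM 1 and 2 differed from WT in the share of small RNA genes, which cannot be told apart from ICM either. No group has more than 2 libraries, so single libraries could not be tested against their group.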

How the results depend on the processing

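Of 648 values of single genes under the alternatives, 555 kept their direction and their side of the threshold, 36 lost a call, 19 gained one and 38 changed sign. Of 144 counts of calls, 86 stayed within 1.5 times and 58 did not.

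Counts among the 9 genes moved as follows. ICM 1 and 2 against WT had 0 calls under relative log expression, under total counts, with the compared libraries only and with all 4 ICM libraries as 1 group, and 3 with no filter and by DESeq2. ICM 3 and 4 against ICM 1 and 2 had 6 with no filter and 0 with the compared libraries only. siHMGB2 had 2 with the compared libraries only. The libraries labelled siSRRM2 had 2 with no filter and 1 by DESeq2. Leaving out 1 library gave 0 to 1 for ICM 1 and 2 against WT, 2 to 2 for ICM 3 and 4 against WT, 1 to 3 for the ICM pairs, and 0 to 1 for the libraries labelled siBANF1.

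Over all genes, ICM 1 and 2 against WT had 3883 calls with no filter, 4010 by DESeq2 and 33 with the compared libraries only. ICM 3 and 4 against WT had 8993 with the compared libraries only and 10486 in the added fit, and the ICM pairs had 239 with the compared libraries only. siHMGB2 had 94 with no filter, 73 by DESeq2, 2055 with the compared libraries only and 261 in the added fit. The libraries labelled siSRRM2 had 1 under total counts, 814 with no filter, 727 by DESeq2 and 0 with the compared libraries only, and those labelled siBANF1 161 with no filter and 17 by DESeq2. Leaving out 1 library gave 545 to 3612 for ICM 1 and 2 against WT, 1922 to 2602 for ICM 3 and 4 against WT, 1206 to 6059 for the ICM pairs, 1 to 47 for the libraries labelled siSRRM2 and 0 to 81 for those labelled siBANF1. The cause of these shifts was not tested.

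Same-numbered libraries had correlated deviations for ICM 1 and 2 with the libraries labelled siBANF1 (0.81) and for ICM 3 and 4 with siCTCF (0.48), but not for WT with siHMGB2 (0.06), WT with ICM 1 and 2 (-0.08) or ICM 1 and 2 with the libraries labelled siSRRM2 (-0.001). With 2 pairs each, the numbers are not known to pair libraries. With the replicate block and only the compared libraries, 1445 genes were called in ICM 1 and 2 against WT with 1 of the 9 genes (TNFAIP3 at -1.88, adjusted p = 0.0326, while that of RELA was 0.493), 2293 in siHMGB2 with 2 of the 9 genes (REL at -0.61 and TNFAIP3 at -0.77), 103 in the libraries labelled siSRRM2, 1 in those labelled siBANF1 and 4 in siCTCF, where the pairing follows the file names.

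The 38 sign changes were as follows. RELB between the ICM pairs (0.03) went to -0.0017 under relative log expression, -0.0018 by DESeq2 and -0.0149 with the compared libraries only. NFKB1 in siCTCF (0.0032) went to -0.0013, -0.0012 and, with the block, -0.0078. With all 4 ICM libraries as 1 group, RELA was at 0.64 and BIRC3 at -0.41 against WT. Leaving out 1 library, RELB in siHMGB2 ran from -0.0412 to 0.33 and NFKBIZ from -0.30 to 0.0987. BIRC3 ran from -0.62 to 0.89 in ICM 1 and 2 against WT, and between the ICM pairs RELB ran from -0.31 to 0.47 and REL from -0.37 to 0.77. In the libraries labelled siSRRM2 the ranges were -0.28 to 0.18 (RELA), -0.0834 to 0.27 (NFKB1) and -0.0317 to 1.16 (NFKBIA). In those labelled siBANF1 they were -0.57 to 1.53 (RELB), -0.23 to 0.78 (REL), -0.32 to 0.91 (NFKB1), -0.14 to 1.70 (NFKB2), -0.79 to 2.05 (NFKBIA), -0.68 to 1.45 (NFKBIZ), -2.09 to 2.72 (TNFAIP3) and -0.24 to 1.95 (BIRC3), each low end without siBANF1 1. In siCTCF they were -0.0024 to 0.12 (RELB), -0.44 to 0.71 (REL), -0.46 to 0.36 (NFKB1), -0.38 to 0.24 (NFKB2), -0.0891 to 0.19 (NFKBIA), -0.80 to 1.05 (NFKBIZ) and -0.62 to 0.27 (TNFAIP3).

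With 2 libraries a group, leaving out 1 leaves a single library that is assumed to vary like the other groups.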
